A study of Zea mays with 16 samples.

Results

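Transcript levels in roots of the maize inbred line V-372 were compared between recovery after waterlogging and severe waterlogging. The members were the 4 arrays that the sample labels place in those 2 stages of V-372, out of 16 arrays in the series: 2 from the recovery stage, sampled on day 42 after sowing, and 2 from the severe stage, sampled on day 35. The series held the same 4 stages in 2 lines, V-372, described by the study as susceptible to waterlogging, and HKI1105, described as tolerant, with 2 arrays for each of the 8 groups. In both lines the stages were control (day 28, before the pots were sealed), moderate stress (day 32), severe stress (day 35) and recovery (day 42). Plants stood in pots whose drainage holes were sealed so that water covered the soil, and the recovery plants were sampled after the water had been let out. The labels and the study's methods give different days for the draining, so the length of recovery is not settled. No unstressed roots were sampled after day 28, so stage and plant age cannot be told apart. By the labels each pair of arrays is biological, whereas by the study's methods it is technical, so the p-values measure the spread between these arrays, which may be technical.

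Waterlogged soil loses oxygen because gases diffuse slowly through water. Roots then depend on glycolysis and fermentation for energy, and drained soil returns oxygen to cells that have adapted to its lack, which raises the demand on enzymes that remove reactive oxygen. Maize roots also make benzoxazinoids, indole-derived defence compounds that are stored as glucosides, and jasmonates, hormones made from oxidised fatty acids.

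Levels are given as the deposited log2 values, so that a difference of 1 is a doubling on the linear scale. They had a floor of 2.01, shared by all 16 arrays, and values at the floor have no order. Where the lower stage lay at the floor or within 1 log2 unit of it, the size of a change is set by the floor and is read as a lower bound. A change is recovery minus severe stress, so a positive change is a higher level in recovery. A probe set rose or fell where the Benjamini-Hochberg adjusted p from limma was under 0.05 over the 17621 probe sets tested. The 2 arrays of each stage correlated at r = 0.998, and the median level was 7.08 to 7.09 in the recovery arrays and 7.15 to 7.18 in the severe arrays. Control probe sets for the 3′ and the 5′ end of the same transcript differed in their gap between the stages. The gap for Gapdh was 6.58 and 7.24 log2 units in the recovery arrays, against 9.39 and 8.18 in the severe arrays. That for Cyph was 2.70 and 3.06 in recovery, against 5.01 and 4.17 in severe stress, and that for ubiquitin was 3.80 and 4.37, against 5.82 and 5.59. In V-372 the stages did not overlap in any of these gaps, a measure that moves with the integrity and labelling of the RNA. In HKI1105 the gap for Gapdh was 6.98 and 7.73 in recovery, against 7.74 and 7.08 in severe stress. That for ubiquitin was 4.11 and 4.26, against 4.32 and 3.99, so both overlapped there. The HKI1105 gap for Cyph, 3.19 and 3.35 against 4.01 and 3.79, did not. The part of these gaps in the results was not tested.

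The labelled tissue was root, and the severe arrays held high levels of leaf marker transcripts. The summed linear level of 20 light harvesting and photosystem probe sets was 20675 and 19868 in the recovery arrays, against 121505 and 121498 in the severe arrays. For 18 probe sets of the C4 cycle and carbon fixation the sums were 6436 and 6439 in recovery, against 160997 and 154862 in severe stress. Across the stages the light harvesting sum was 382 and 381 in control roots, 14887 and 14330 in moderate stress, 121505 and 121498 in severe stress, and 20675 and 19868 in recovery, so that recovery stood below severe stress and above the control. The summed level of 34 root preferred probe sets was 19827 and 20076 in recovery, against 30792 and 30997 in severe stress, and also stood lower in recovery. It was 48395 and 47229 in control roots and 47734 and 46302 in moderate stress. The median change of this list between severe stress and recovery was 0, so its sum rests on some of its members. For 14 probe sets of chlorophyll synthesis and plastid carriers the sum was 36192 and 36049 in recovery, against 43899 and 43789 in severe stress. This sum was already 28183 and 26826 in V-372 control roots. In HKI1105 it was higher in recovery, at 40685 and 40259, than in severe stress, at 34197 and 35156, unlike the light harvesting sum. Of 19 kernel storage protein probe sets, 17 lay within 1 log2 unit of the floor in every array of the series. In HKI1105 the light harvesting sum was 1342 and 1365 in recovery, against 18160 and 18537 in severe stress. It was highest there in moderate stress, at 38489 and 40332. The C4 sum in HKI1105 was 3802 and 3993 in recovery, against 34063 and 35531 in severe stress. The V-372 recovery arrays carried leaf transcripts and both severe V-372 arrays carried more. No comparison of these stages can be made without these transcripts, and their part in the other results was not tested. In bulk tissue a smaller share of a cell type and less RNA per cell cannot be told apart.

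**Figure D1:**
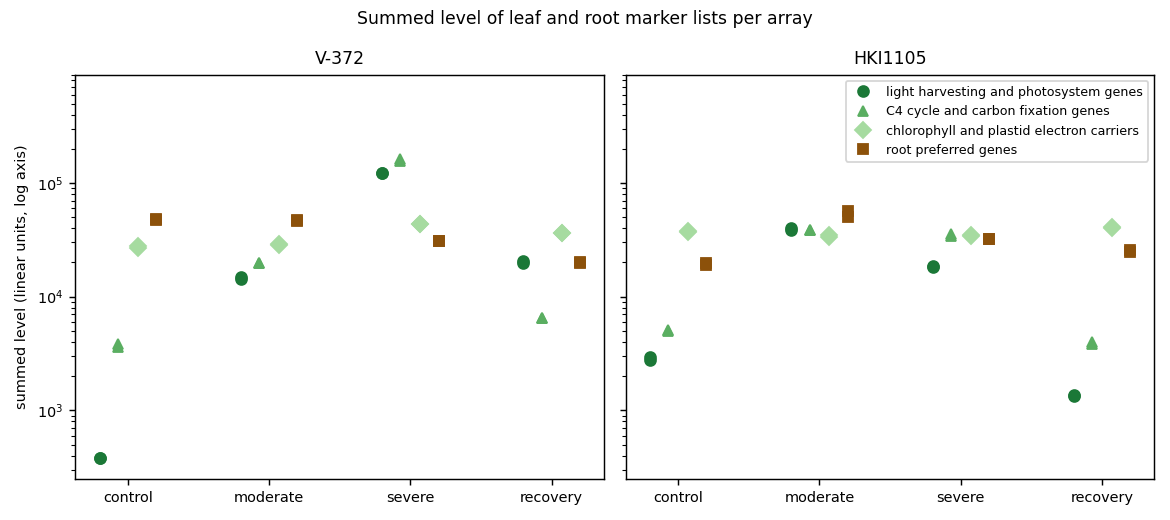
Summed level of the leaf and root marker lists in single arrays (y axis, linear units, log axis) at the 4 stages of V-372 and HKI1105 (x axis, 2 arrays a stage). In V-372 the light harvesting sum is 121505 and 121498 in severe stress and 20675 and 19868 in recovery.

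More transcripts fell strongly than rose strongly between severe stress and recovery. At the study's thresholds, p of 0.001 or less and a change of at least 5-fold, 485 probe sets were higher in recovery (2.75% of those tested) and 958 were lower (5.44%). At an adjusted p under 0.05, 5094 were higher (28.9%) and 3653 lower (20.7%), so that higher ones made up 58.2% of the calls. With each array centred on its median these numbers were 9124 and 3446, and higher ones made up 72.6%. Centring added 0.0804 to every change, also at the floor. nas1, whose change was 0 before, then passed at 0.0804 (limma adjusted p = 0.0374), so the 9124 include probe sets that did not change before centring. The median change over all probe sets was 0, and 5290 probe sets lay within 1 log2 unit of the floor at both stages. Of the probe sets called at 5-fold, 110 of those higher and 169 of those lower have a gene name in the tables given with the platform, and the others are not named here.

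The strongly changed transcripts differed in where they stood before the stress. The median level of the 485 higher probe sets was 7.71 in control roots, 7.77 in moderate stress, 5.38 in severe stress and 8.89 in recovery. In recovery 168 of them stood within 2 times their control level, 287 above it and 30 below it. The median of the 958 lower probe sets was 5.32 in control roots, 6.38 in moderate stress, 9.28 in severe stress and 5.23 in recovery. In recovery 385 of these stood within 2 times the control, 287 above it and 286 below it, and 175 (18.3%) lay near the floor at every stage other than severe stress. These counts describe the course and are not a test, since the comparisons share arrays.

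**Figure D2:**
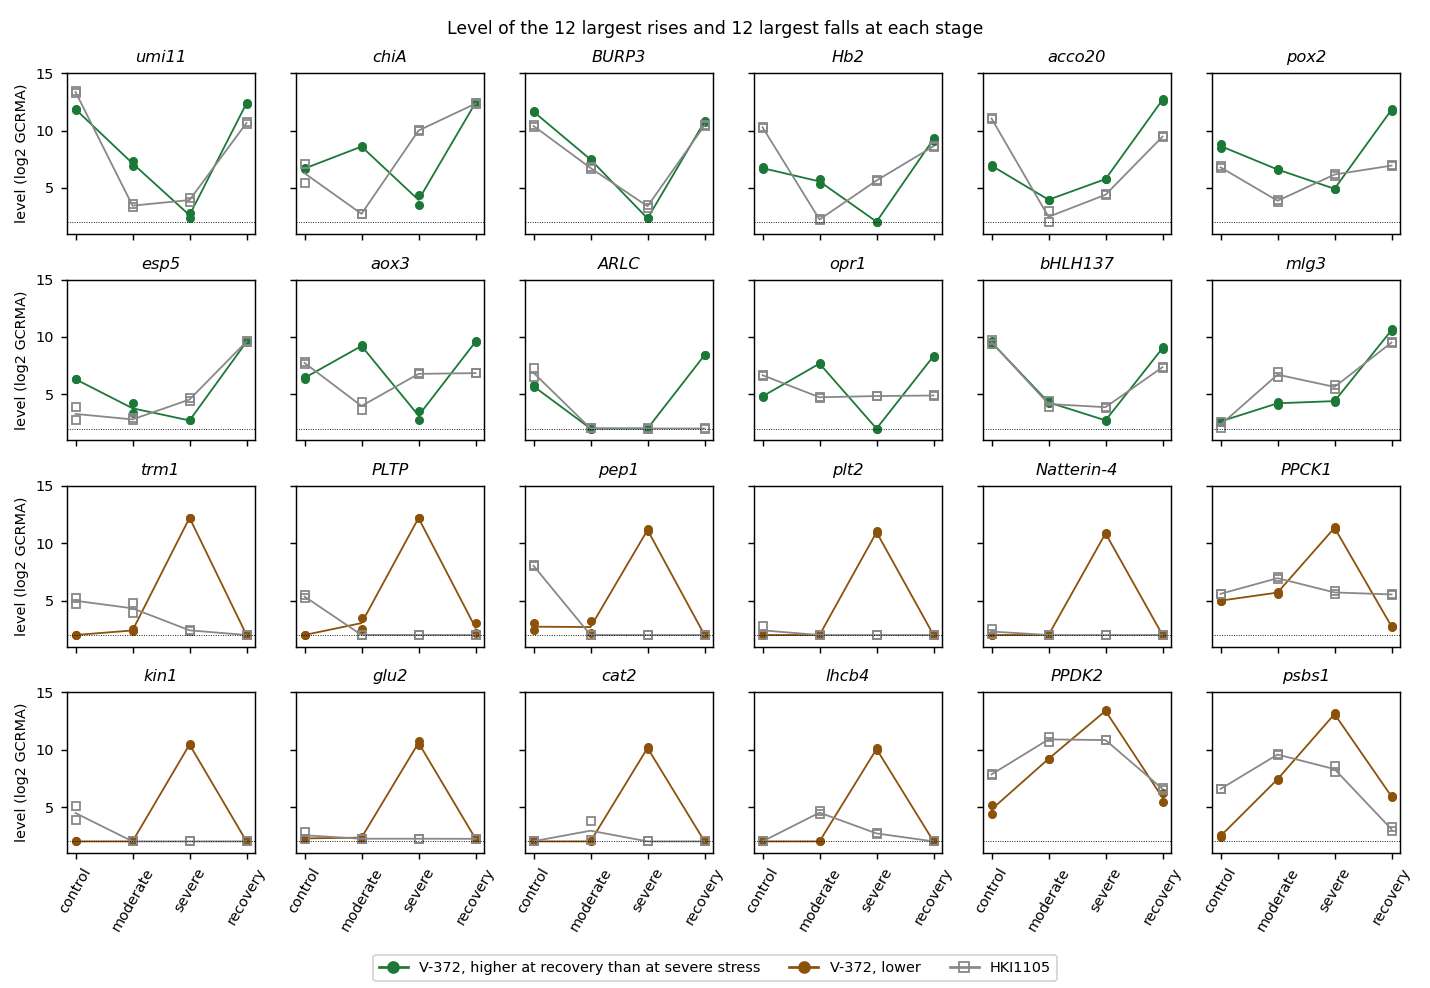
Levels (y axis, log2) of the 12 named genes with the largest fitted rises (green) and the 12 with the largest fitted falls (brown) in V-372 at the 4 stages (x axis, 2 arrays a stage, lines through the means), with HKI1105 in grey and the floor dotted. In V-372 umi11 averaged 11.86 in control roots and stood at 2.84 and 2.41 in severe stress and at 12.32 and 12.44 in recovery, whereas pep1 averaged 2.73 in control roots and 2.70 in moderate stress.

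Most photosynthesis transcripts fell. Of the 20 light harvesting and photosystem probe sets, 0 rose and 17 fell, with a median change of -2.62. Over all probe sets tested 28.9% rose and 20.7% fell, with a median of 0. List members all have a gene name, and some names come from gene models of transcripts that the study called changed. Of the 1494 named probe sets 496 rose and 423 fell, with a median of 0, and these are the closer background for every list. For C4 and carbon fixation 0 of 18 rose and 15 fell, with a median of -5.20. The transcript of pep1, phosphoenolpyruvate carboxylase of the C4 cycle, stood at 2.01 and 2.01 in the recovery arrays, against 11.08 and 11.24 in the severe arrays. Its level lay at the floor in recovery and far above it in severe stress. It fell by at least 9.15 log2 units (limma adjusted p = 1.84e-08). PPCK1, which encodes the kinase that phosphorylates this carboxylase, had 2.77 and 2.75 in recovery, against 11.24 and 11.46 in severe stress. The stages did not overlap for either gene, and both were picked for being among the largest falls. PPDK2, a pyruvate, phosphate dikinase, had 5.41 and 6.22 in recovery, against 13.33 and 13.44 in severe stress, and me3, an NADP-malic enzyme, had 6.26 and 6.02, against 12.56 and 12.95. The small subunit of Rubisco, rbcS, had 9.34 and 9.36 in recovery, against 14.79 and 14.56. All 3 fell and stayed above their control means of 4.79, 3.97 and 3.09. Among light harvesting genes, lhcb4, a chlorophyll-binding antenna protein, had 2.01 and 2.01 in recovery, against 10.17 and 9.95 in severe stress. psbs1, the photoprotective subunit of photosystem II, had 5.98 and 5.86, against 13.01 and 13.20. lhcb4 was at the floor in recovery and psbs1 was not. psad1, a photosystem I subunit, had 6.42 and 6.66, against 12.53 and 12.55.

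The plastid carriers and related genes followed no single direction. Of 14 probe sets for chlorophyll synthesis and plastid electron carriers, 5 rose and 7 fell, with a median change of -1.60. trm1, a chloroplast thioredoxin of the M type, had 2.01 and 2.01 in the recovery arrays, against 12.23 and 12.22 in the severe arrays, and fell by at least 10.22 log2 units (limma adjusted p = 3.62e-09). This probe set lay at or near the floor at every stage other than severe stress. A second trm1 probe set, far above the floor, had 9.56 and 9.58 in recovery, against 13.70 and 13.66 in severe stress, and fell by 4.11. oy1, a subunit of the magnesium chelatase of chlorophyll synthesis, changed by -4.47 ± 0.16 (± SE here and for every change), and fdx2, a ferredoxin, by -6.83 ± 0.51. fnr1, a ferredoxin-NADP reductase, rose instead, with 7.68 and 7.37 in recovery, against 2.75 and 2.75. Of the other fnr1 probe sets 1 rose, by 2.28, and 2 did not pass.

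Other large falls were seen in genes whose levels were low in control and moderately stressed roots. plt2, of the lipid transfer list, had 2.01 and 2.01 in recovery, against 10.91 and 11.03 in severe stress, and LTP3, a lipid transfer protein, had 2.01 and 2.01, against 6.66 and 6.73. Both probe sets of that list fell. cat2, a catalase, had 2.01 and 2.01 in recovery, against 10.07 and 10.24. PLTP had 2.19 and 3.09, against 12.16 and 12.24, and Natterin-4 had 2.01 and 2.01, against 10.88 and 10.86. kin1 had 2.01 and 2.01, against 10.39 and 10.51. The recovery arrays were at the floor in all of these genes but PLTP. Other probe sets named PLTP and Natterin-4 changed less, the PLTP ones by between 0 and -3.27 and the Natterin-4 one by -5.08. glu2, listed with benzoxazinoid glucosidases, had 2.24 and 2.24, against 10.77 and 10.42. Among transcription factors, MYB61 had 2.01 and 2.01 in recovery, against 8.31 and 8.65, and ocl5, a homeobox factor of the outer cell layer, had 2.01 and 2.01, against 6.40 and 6.46.

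Genes of cell expansion and division fell more often than they rose. Of 18 probe sets for expansins, which loosen the cell wall, and xyloglucan endotransglycosylases, 1 rose and 12 fell, with a median of -2.43. expB7 had 2.63 and 3.52 in recovery, against 9.75 and 9.60 in severe stress, and its moderate mean was 11.67. expB8 had 7.15 and 7.57, against 11.59 and 11.70, and expa1 had 5.51 and 5.43, against 9.41 and 9.26. The recovery arrays lay below the severe arrays in each of these expansins, and below the control means of 4.47, 11.71 and 9.96. Among the histone, replication and cell cycle genes, 18 of 32 probe sets fell and 1 rose, with a median of -0.50. cyc3, a cyclin, changed by -2.58 ± 0.30, rad51a, a recombinase of DNA repair, by -2.05 ± 0.10, and the histone genes H3C2 and H4C13 by -1.79 ± 0.11 and -1.78 ± 0.10. With the 4 arrays of these stages alone 11 of the 32 fell. Tubulins and actins split, with 15 of 33 risen and 7 fallen. tub3 changed by 2.01 ± 0.10 and TUB1 by -2.37 ± 0.08. For fatty acid desaturation 0 of 6 rose and 4 fell, with FAD8, a plastid desaturase, at -2.01 ± 0.12.

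**Figure D3:**
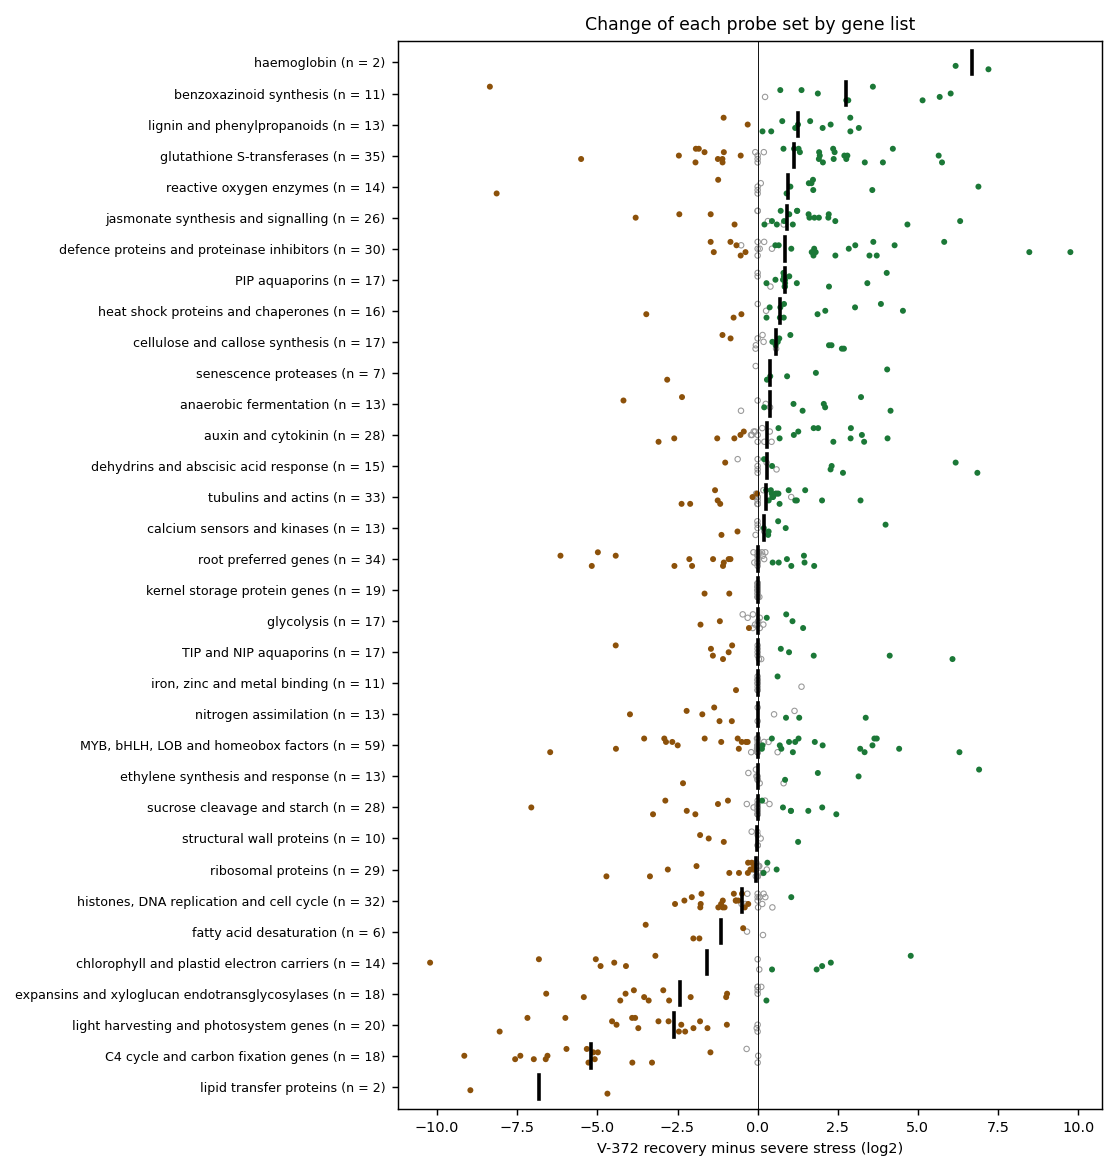
Change in V-372, recovery minus severe stress (x axis, log2), of each probe set in the gene lists (y axis), with green points risen, brown points fallen, open grey points not past an adjusted p of 0.05 and a black bar at each median. The median is -5.20 for the C4 list and 2.77 for the benzoxazinoid list.

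Most benzoxazinoid genes rose. Of 11 probe sets of the pathway, 9 rose and 1 fell, with a median of 2.77. bx1, which forms indole from indole-3-glycerol phosphate at the first step, had 9.92 and 9.93 in recovery, against 3.99 and 3.81 in severe stress (change 6.02 ± 0.17, limma adjusted p = 9.92e-09). The cytochrome P450 genes bx2 and bx3, which oxidise the indole, had 8.99 and 8.59, against 3.56 and 3.74, and 13.18 and 13.21, against 7.40 and 7.63. The recovery arrays lay above the severe arrays in all 3 genes. The later P450 gene bx4 changed by 3.60 ± 0.04 and BX14, a methyltransferase of the pathway, by 2.83 ± 0.22. The one fall was glu2, given above, which did not follow the synthesis genes. bx1 averaged 10.82 in control roots, and its recovery level lay below that, whereas bx3 stood above its control mean of 10.35.

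Probe sets of the defence and jasmonate lists rose more often than they fell. Of 30 probe sets for defence proteins and proteinase inhibitors, 17 rose and 6 fell, with a median of 0.85. umi11 had 12.32 and 12.44 in the recovery arrays, against 2.84 and 2.41 in the severe arrays, which lay within 1 log2 unit of the floor, and rose by at least 9.76 (limma adjusted p = 1.47e-09). chiA, a chitinase that degrades fungal cell walls, had 12.46 and 12.41, against 3.55 and 4.36, and its control mean was 6.69. Both genes were low in the severe arrays and high in both recovery arrays. PR-1, a pathogenesis-related protein, had 9.02 and 8.66 in recovery, against 2.75 and 3.29 in severe stress, with moderate and control means of 2.01 and 2.42. chn1, another chitinase, changed by 3.72 ± 0.10, and PR10 by 3.61 ± 0.12. Of 26 probe sets of the jasmonate list, 18 rose and 4 fell, with a median of 0.91. The list was matched by gene symbol, so membership does not show that a gene acts in jasmonate synthesis. opr1, of the oxophytodienoate reductase family, had 8.38 and 8.29 in recovery, against 2.02 and 2.01. The lipoxygenase gene lox3 had 12.46 and 12.37, against 7.69 and 7.80. Both were higher in recovery. hpl1, a hydroperoxide lyase, fell by 3.81 ± 0.15.

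**Figure D4:**
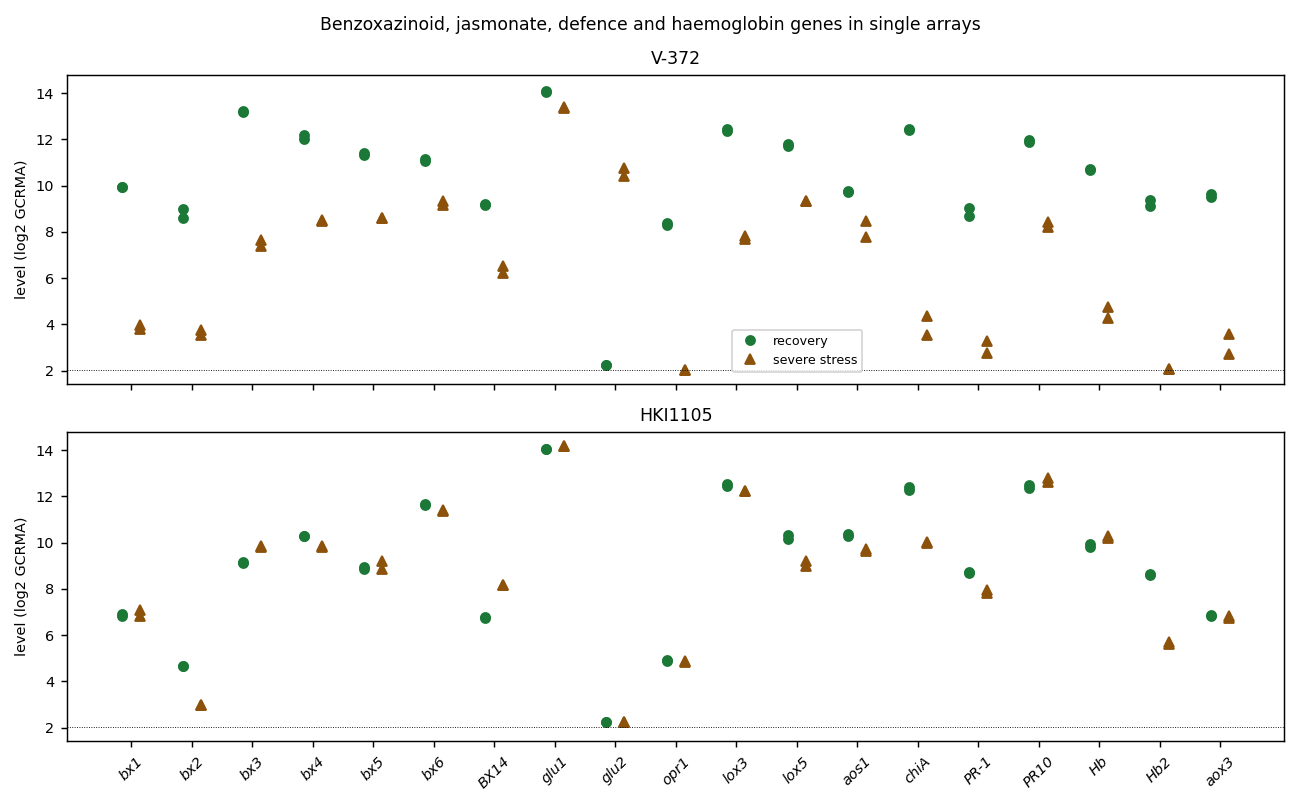
Level (y axis, log2) of benzoxazinoid, jasmonate, defence and haemoglobin genes and aox3 (x axis) in single recovery and severe arrays of V-372 and HKI1105, with a dotted line at the floor of 2.01. In V-372 bx3 is 13.18 and 13.21 in recovery and 7.40 and 7.63 in severe stress.

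Both haemoglobin genes rose, and more probe sets for enzymes that handle reactive oxygen rose than fell. The class of plant haemoglobin that binds oxygen tightly is induced by low oxygen and scavenges nitric oxide. Hb had 10.71 and 10.68 in recovery, against 4.29 and 4.74 in severe stress, and Hb2 had 9.13 and 9.39, against 2.06 and 2.06. The 2 genes were low in severe stress, and their moderate means of 10.97 and 5.57 were higher than that. aox3, an alternative oxidase that passes electrons to oxygen without proton pumping, had 9.52 and 9.63 in recovery, against 3.56 and 2.74. Of 14 probe sets for reactive oxygen enzymes 8 rose, 2 fell and 4 did not pass, with a median of 0.96. Against control roots 7 were higher in recovery and 2 lower, with a median of 0.12. Between severe stress and recovery in HKI1105, 6 of the 14 rose and 2 fell. In V-372 pox2, a peroxidase, changed by 6.89 ± 0.11 and CAT3, a catalase, by 3.58 ± 0.11, in the opposite direction to cat2. Glutathione S-transferases, which detoxify reactive compounds, split, with 19 of 35 probe sets risen and 11 fallen and a median of 1.14. gst7 had 8.28 and 8.25 in recovery, against 2.63 and 2.40, and gst12 had 2.99 and 3.07, against 8.58 and 8.50, so these 2 moved in opposite directions. gst18 changed by 5.65 ± 0.19.

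Fermentation genes moved both ways. Of 13 probe sets 7 rose and 2 fell, with a median of 0.39. Pyruvate decarboxylase, which starts ethanol fermentation, is encoded by pdc1 and pdc2 among others. pdc1 had 6.54 and 6.64 in recovery, against 10.82 and 10.74 in severe stress, and pdc2 had 7.06 and 7.07, against 3.15 and 2.69. The probe sets given for these 2 genes changed in opposite directions, although another named pdc2 did not pass (change 0.39), and both had higher moderate means, 12.84 and 10.58. adh2, an alcohol dehydrogenase, rose by 2.11 ± 0.09. In glycolysis 4 of 17 rose and 3 fell, with a median change of 0. Of 28 sucrose and starch probe sets, 7 rose and 7 fell. sps1, a sucrose-phosphate synthase, had 2.01 and 2.01, against 9.04 and 9.10, and incw1, a cell wall invertase, rose by 2.45 ± 0.10. In nitrogen assimilation 3 of 13 rose and 6 fell, and asn1, an asparagine synthetase, had 9.74 and 9.72 in recovery, against 13.70 and 13.74. It fell and stayed above its control mean of 6.83, whereas a second asn1 probe set did not pass (change 0.51).

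Genes for wall polymers and water channels rose more often than they fell. Of 13 lignin and phenylpropanoid probe sets 11 rose and 2 fell, with a median of 1.26. CCOAOMT2, a methyltransferase of lignin precursors, had 11.44 and 11.30 in recovery, against 8.27 and 8.68, and BM1, a cinnamyl alcohol dehydrogenase, had 13.43 and 13.27, against 11.08 and 11.07. In both genes the recovery arrays lay above the severe arrays and below the control means of 11.69 and 13.63. Of 17 cellulose and callose synthesis probe sets 9 rose and 2 fell, with a median of 0.56. bk2, a COBRA-like protein of secondary walls, changed by 2.69 ± 0.07, and the cellulose synthases cesa10, cesa11 and CesA12 by 2.30, 2.63 and 2.23. PIP aquaporins, water channels of the plasma membrane, rose in 14 of 17 probe sets and fell in 0, with a median of 0.84. pip2c had 10.24 and 10.30 in recovery, against 6.10 and 6.38 in severe stress, whereas a second pip2c probe set did not pass (change 0.40). TIP and NIP aquaporins split, with 5 of 17 risen and 6 fallen, among them tip3a at 6.08 ± 0.40 and nip2b at -4.43 ± 0.20.

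Hormone, stress and signalling genes showed selected changes. In ethylene synthesis and response 4 of 13 rose and 1 fell. acco20, an ACC oxidase that forms ethylene, had 12.58 and 12.78 in recovery, against 5.76 and 5.79 in severe stress, and the recovery arrays lay far above both the severe arrays and the control mean of 6.94. Of 28 auxin and cytokinin probe sets 12 rose and 6 fell, with a median of 0.29. The response regulators RR7 and RR6, which cytokinin induces, changed by 4.05 ± 0.22 and 3.32 ± 0.10. Heat shock proteins and chaperones rose in 11 of 16 probe sets and fell in 3, with a median of 0.70. hsp18f, a small heat shock protein, had 13.08 and 13.15, against 8.49 and 8.68, and hsp101, a disaggregase, had 7.74 and 7.89, against 4.05 and 3.89. Both were higher in recovery than in severe stress. hscf1 fell by 3.47 ± 0.27. Dehydrins and abscisic acid response genes rose in 7 of 15 and fell in 1. mlg3, a late embryogenesis abundant protein gene, had 10.69 and 10.49 in recovery, against 4.35 and 4.47. dhn1, a dehydrin, had 14.27 and 14.15 in recovery, against 13.58 and 13.66 in severe stress and a control mean of 2.64. Its change of 0.59 ± 0.44 did not pass in the fit over 16 arrays (limma adjusted p = 0.348), although it passed with the 4 arrays of these stages (adjusted p = 0.0231) or the 8 V-372 arrays alone (adjusted p = 0.0215). Among transcription factors 18 of 59 probe sets rose and 14 fell. bHLH137 had 8.94 and 9.11 in recovery, against 2.77 and 2.69.

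A few abundant transcripts hardly differed between the stages. elfa3, an elongation factor gene, had 13.31 and 13.45 in recovery, against 13.41 and 13.34 in severe stress. trxh1, a thioredoxin of the h type, had 13.80 and 13.83, against 13.91 and 13.77. The arrays of the stages overlapped in both genes, which follows from the choice, since they were picked for the smallest change.

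HKI1105 changed less in number of strongly changed transcripts over the same stages. In recovery 188 probe sets were higher (1.07%) and 187 lower (1.06%) at the study's thresholds. The 2 lines share no arrays, and 63 probe sets were higher in both, 13.0% of the 485 in V-372 and 33.5% of the 188 in HKI1105. For lower probe sets the overlap was 117, 12.2% of 958 and 62.6% of 187. Over all 17621 probe sets the changes of the lines correlated at r = 0.38 and rho = 0.33, across genes that are not independent and with every array normalised together. The test of V-372 change minus HKI1105 change called 429 probe sets higher (2.43%) and 798 lower (4.53%) at these thresholds, and 4050 (23.0%) and 3172 (18.0%) at an adjusted p under 0.05. Benzoxazinoid genes differed between the lines, with the V-372 change higher in 9 of 11 probe sets and lower in 1 at an adjusted p under 0.05. bx3 changed by 5.68 in V-372 and by -0.71 in HKI1105, a difference of 6.39 ± 0.11 (limma adjusted p = 9.71e-10). In HKI1105 it had 9.14 and 9.10 in recovery, against 9.80 and 9.86 in severe stress. Hb changed by 6.18 in V-372 and by -0.36 in HKI1105, a difference of 6.54 ± 0.26. For the light harvesting list the V-372 change was higher, a smaller fall, in 11 of 20 probe sets and lower in 7, with a median of -2.62 in V-372 and -4.01 in HKI1105. For the C4 list it was higher in 3 of 18 and lower in 10, with medians of -5.20 in V-372 and -2.55 in HKI1105. Over all probe sets 16.3% rose and 14.8% fell in HKI1105 at an adjusted p under 0.05. Of the 1494 named probe sets 284 rose and 302 fell in HKI1105, and the V-372 change was higher in 455 and lower in 355. In cellulose and callose synthesis 0 of 17 probe sets rose and 15 fell in HKI1105, with a median of -0.86, and the V-372 change was higher in 14 of 17 and lower in 1. bk2 changed by 2.69 in V-372 and by -0.93 in HKI1105, a difference of 3.63 ± 0.10. Some changes were alike in direction in both lines. umi11 rose by at least 9.76 in V-372 and by 6.72 in HKI1105, and BURP3 by at least 8.44 and by 7.04. For expB7 the changes were -6.60 and -7.15, and their difference of 0.56 ± 0.49 did not pass (limma adjusted p = 0.477).

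**Figure D5:**
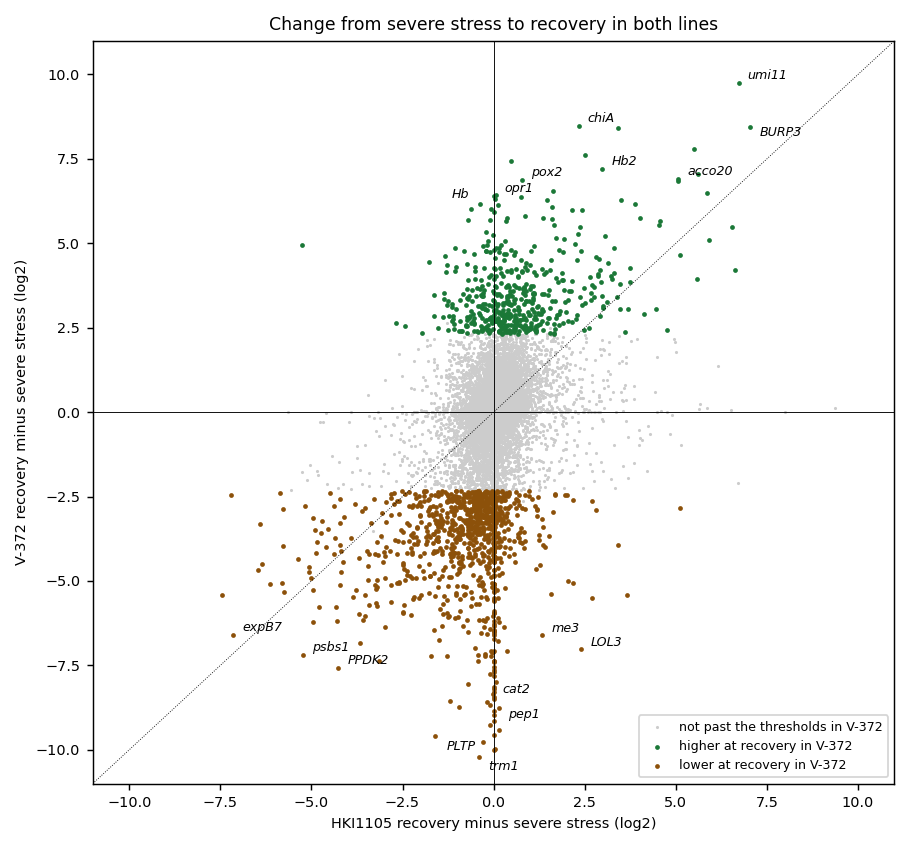
Recovery minus severe stress in V-372 (y axis, log2) against the same in HKI1105 (x axis, log2), 1 point for each of 17621 probe sets, green or brown where the probe set was higher or lower in V-372 at the study's thresholds, with a dotted line of equal change. The changes correlate at r = 0.38, and bx3 lies at 5.68 in V-372 and -0.71 in HKI1105.

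Many transcripts also differed between recovery and control roots. At the study's thresholds 520 probe sets were higher in recovery than in control roots (2.95%) and 650 were lower (3.69%). At an adjusted p under 0.05 the numbers were 4091 (23.2%) and 4140 (23.5%), and of the 1494 named probe sets 430 were higher and 401 lower. The light harvesting list had 14 of 20 probe sets higher in recovery than in control roots and 0 lower. The expansin list had 1 of 18 higher and 12 lower, and the cellulose and callose list had 0 of 17 higher and 15 lower.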

How the data were processed

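Root RNA was hybridised to the Affymetrix GeneChip Maize Genome Array after labelling from the 3′ end. The deposited values are log2 expression values that the authors made with GCRMA, which corrects background, normalises and summarises probes over all 16 arrays. The GCRMA version is not given in the sources used here. The values carry no sequencing depth, and the number of arrays limits their precision. The 113 AFFX control probe sets were left out, and 17621 were fitted with limma (version 3.58.1) in R (version 4.3.3), with 1 mean for each of 8 groups, 8 residual degrees of freedom and empirical Bayes moderation. The fit was tested on simulated data. Gene names were updated through RefSeq, with 1262 probe sets named from the platform annotation and 232 from gene models that the study lists, 1494 probe sets of 1176 genes in all. The others are not named here. Where several probe sets share a gene, the text gives the one with the largest change. Named genes were the 12 largest rises and 12 largest falls past the study's thresholds, up to 6 members of each list by absolute change, the 6 largest line differences in each direction, and the 4 most stable with a mean over 12. Since genes were picked by their change, a gap or overlap between their arrays follows in part from the choice. A few genes were picked for the figures from these lists. The members and lists were chosen with earlier results of these data known, and 45 false symbol matches were taken out of the lists and 2 added. Alternatives were other sets of arrays, scalings, filters, thresholds, a replicate block and leaving out each array.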

Additional observations from a re-analysis of the deposited data

Results flagged for a closer look

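The test of V-372 change minus HKI1105 change between severe stress and recovery drew attention to many transcripts, 429 higher and 798 lower at 5-fold and 4050 higher and 3172 lower at an adjusted p under 0.05. The named genes below had the largest changes in V-372, or the largest line differences, and a line difference past the study's thresholds in limma. The line difference contains the V-372 change, so this choice favours large differences, and their sizes are a description of the picked genes. Genes whose line difference was smaller than 5-fold are left out, even where it passed an adjusted p under 0.05.

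The V-372 change was the higher one for 10 of these genes. ARLC changed by 6.40 in V-372 and by 0.00 in HKI1105, a difference of 6.40, with HKI1105 at 2.02 in all 4 arrays. Hb changed by 6.18 in V-372 and by -0.36 in HKI1105, a difference of 6.54. Hb2 changed by 7.20 in V-372 and by 2.98 in HKI1105, a difference of 4.22. aox3 changed by 6.43 in V-372 and by 0.07 in HKI1105, a difference of 6.36. bHLH137 changed by 6.30 in V-372 and by 3.49 in HKI1105, a difference of 2.80. bx3 changed by 5.68 in V-372 and by -0.71 in HKI1105, a difference of 6.39. chiA changed by 8.48 in V-372 and by 2.34 in HKI1105, a difference of 6.14. opr1 changed by 6.32 in V-372 and by 0.05 in HKI1105, a difference of 6.27. pox2 changed by 6.89 in V-372 and by 0.78 in HKI1105, a difference of 6.11. umi11 changed by 9.76 in V-372 and by 6.72 in HKI1105, a difference of 3.04.

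The V-372 change was the lower one for the other 12. LOL3 changed by -7.03 in V-372 and by 2.41 in HKI1105, a difference of -9.44. Natterin-4 changed by -8.86 in V-372 and stood at 2.01 in every HKI1105 array of both stages, a difference of -8.86. PLTP changed by -9.56 in V-372 and stood at 2.01 in every HKI1105 array of both stages, a difference of -9.56. PPCK1 changed by -8.60 in V-372 and by -0.17 in HKI1105, a difference of -8.42. PPDK2 changed by -7.57 in V-372 and by -4.26 in HKI1105, a difference of -3.31. cat2 changed by -8.14 in V-372 and stood at 2.01 in every HKI1105 array of both stages, a difference of -8.14. glu2 changed by -8.36 in V-372 and by -0.01 in HKI1105, a difference of -8.35. kin1 changed by -8.44 in V-372 and stood at 2.01 in every HKI1105 array of both stages, a difference of -8.44. lhcb4 changed by -8.05 in V-372 and by -0.69 in HKI1105, a difference of -7.36. pep1 changed by -9.15 in V-372 and stood at 2.01 in every HKI1105 array of both stages, a difference of -9.15. plt2 changed by -8.96 in V-372 and stood at 2.01 in every HKI1105 array of both stages, a difference of -8.96. trm1 changed by -10.22 in V-372 and by -0.41 in HKI1105, a difference of -9.81. The light harvesting list as a whole ran the other way, with the V-372 change higher in 11 of 20 probe sets and lower in 7, and a median line difference of 0.82. Probe sets of a gene did not all move alike: for trm1 a second one had a line difference of 0.07, for PPDK2 of -7.41, and for LOL3 of -0.58 with a V-372 change of 1.78. A change between arrays at the floor has no size, and where one stage was at or near the floor in V-372 the difference rests on it. In severe stress the C4 sum was 160997 and 154862 in V-372, against 34063 and 35531 in HKI1105. The part of these leaf transcripts, or of the gaps between transcript ends, in the line differences was not tested.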

How the results depend on the processing

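The counts and named genes were recomputed under 11 alternatives, and 4 counts at the study's thresholds under 2 further thresholds. With the 4 arrays of the 2 stages alone, 320 probe sets were higher and 633 lower at 5-fold, against 485 and 958, and 11 of 32 histone and cell cycle probe sets fell, against 18. With each array centred on its median, 9124 probe sets were higher at an adjusted p under 0.05, and az22z3, a kernel zein near the floor, turned from below 0 to 0.0801. At 2-fold in place of 5-fold, 1902 were higher and 1983 lower, and the line difference called 1544 higher and 1698 lower. Leaving out each array in turn gave 479 to 495 higher and 947 to 963 lower at 5-fold. Over 28 pairs of groups the deviations of same-numbered arrays correlated at -0.16 to 0.20, above 0.1 in 2 pairs and at -0.08 between recovery and severe stress in V-372, so the numbers were not taken to pair the arrays. With the replicate block, 483 were higher and 957 lower, and no named value changed its side of the threshold. Other counts stayed within 1.5 times. Centring added 0.0804 to every change, and the cause of the other shifts was not tested. Of 218 named values, 22 changed their side of the threshold in at least 1 alternative. With the 4 arrays 7 named calls were lost, those of PK1, ccp2, gz27, mir3, pip1e, tua4 and an rps6 probe set (adjusted p = 0.0912, 0.0773, 0.196, 0.223, 0.0605, 0.0703 and 0.0722). Calls lost when 1 array was left out were those of mir3, gz27 and PK1 without recovery replicate 1 (adjusted p = 0.186, 0.0991 and 0.0515), mir3, gz27, ccp2 and an rps6 probe set without severe replicate 1 (adjusted p = 0.224, 0.0696, 0.0573 and 0.0860), and that rps6 probe set without recovery replicate 2 or severe replicate 2 (adjusted p = 0.189 and 0.130), all from limma.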

Other observations

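Further gene groups of V-372 changed little or in part between severe stress and recovery. Of 29 ribosomal protein probe sets 3 rose and 12 fell, with a median of -0.06. rpl29 had 8.03 and 8.07 in recovery, against 12.77 and 12.77 in severe stress, and rpl19 had 8.73 and 8.66, against 12.01 and 12.10. Among the V-372 arrays both were highest in the severe ones, and their control means were 6.57 and 7.69. Of 7 probe sets on a list of senescence genes, mostly proteases, 5 rose and 1 fell. see2b, a legumain-like vacuolar protease, had 12.24 and 11.92 in recovery, against 8.05 and 8.02. The fall was that of lls1, an oxygenase of chlorophyll breakdown and not a protease, by 2.82 ± 0.12. Of 13 calcium sensor and kinase probe sets 6 rose and 2 fell, with CBL8, a calcineurin B-like sensor, at 3.99 ± 0.14.

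Among root preferred genes 7 of 34 probe sets rose and 12 fell, with a median change of 0. piip1 had 5.31 and 6.11 in recovery, against 11.81 and 11.92 in severe stress and a control mean of 13.04. Of 6 piip1 probe sets 4 fell and 2 did not pass. Structural wall proteins rose in 1 of 10 and fell in 3, and HRGP, a hydroxyproline-rich glycoprotein, changed by -1.80 ± 0.11 in one probe set and by 1.26 in another. For metal binding 1 of 11 rose and 1 fell, the ferritins fer2 at 0.62 and fer1 at -0.68.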
